A study of Mus musculus and Rattus norvegicus with 32 samples.

Results

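Cytochrome P450 messenger RNAs outside the Cyp4a subfamily were followed in mouse and rat liver after oral trichloroethylene (TCE), a chlorinated solvent. Members were all probe sets annotated with 1 gene symbol of the form Cyp plus a number. Cyp4a names, Cyp2e1, Cyp7a1, Cyp7b1, Cyp8b1 and Cyp51 were left out. The rule gave 105 of the 21162 probe sets on the 2 arrays. They were 38 of 12422 in the mouse (32 genes in 19 subfamilies) and 67 of 8740 in the rat (42 genes in 21 subfamilies). A further 7 mouse and 13 rat probe sets that list several symbols, at least 1 of them a Cyp, name no single gene and were not members.

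The study compared the 2 species. Male B6C3F1 mice and male SD rats received 1500 mg/kg TCE in corn oil, or corn oil alone, by gavage, either once or daily for 14 days. Liver was taken 18 h after the last dose, at an age given as 8 weeks (single dose) or 10 weeks (repeated doses), and all groups had the oil vehicle. Each of the 8 groups held 4 Affymetrix arrays, 32 in all, hybridized with biotin-labelled RNA made from poly-A RNA. The labels do not say that each array is a separate animal, and p-values therefore reflect array-to-array spread only, which may be technical.

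P450s are haem-containing monooxygenases of the endoplasmic reticulum and mitochondria. Families Cyp1, Cyp2 and Cyp3 oxidize foreign chemicals, drugs and steroids in the liver, and their genes are classic targets of the receptors Ahr (Cyp1), Nr1i3, also called CAR (Cyp2b), and Nr1i2, also called PXR (Cyp3a). Family Cyp4 mainly oxidizes fatty acids, and higher-numbered families make or clear steroid hormones, vitamin D and retinoic acid. TCE itself is oxidized mainly by Cyp2e1, which is not among the members.

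The deposited values are ratios: each signal stands relative to its own oil group (4 arrays, matched by species and schedule), whose median is 1. They hold no signal level, so levels could not be compared between genes, between schedules or between species, and the tissue label could not be checked against marker levels. A change below is the TCE mean minus the oil mean of the log2 ratios ± its standard error from limma. "Passed" means a Benjamini-Hochberg adjusted p under 0.05 over all probe sets of the species. Over all probe sets, the median log2 change was -0.09 and -0.15 in mice (single, repeated) and 0.14 and 0.04 in rats. The 3' minus 5' difference of the Gapdh control probe sets, a sign of RNA integrity, was above 1 log2 unit on 3 of 4 TCE arrays of each mouse schedule, on 1 oil array of the repeated mouse schedule, and on 1 and 2 TCE arrays of the rat schedules. The mean log2 ratio of 7 hepatocyte marker probe sets ran from -0.71 to -0.50 on the mouse TCE arrays after 1 dose, against -0.14 to 0.06 on oil. After repeated doses it ran from -1.03 to -0.72 against -0.16 to 0.10. All 7 changes were below zero in each schedule, with medians of -0.36 and -0.59 and lowest values of -1.80 and -1.72. Markers of other liver cells were also below oil without overlap in mice. After 1 dose these were stellate (10 probe sets, -1.41 to -0.68 against -0.48 to 0.53), Kupffer (12, -0.72 to -0.17 against -0.16 to 0.10) and endothelial markers (8, -0.30 to -0.19 against -0.16 to 0.15). After repeated doses they were the endothelial markers (-0.71 to -0.25 against -0.15 to 0.09). In rats, the mean of 22 hepatocyte probe sets was 0.36 to 0.74 against -0.15 to 0.15 after 1 dose, where 3 Apob probe sets were higher, but 14 of the 22 were below zero (median change -0.17). The rat groups overlapped after repeated doses. In whole liver, fewer cells of a type and less RNA per cell cannot be told apart. The part of these differences in the results below was not tested beyond the values given.

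More mouse than rat members passed, a contrast of counts that was not itself tested. After 1 dose, 5 of 38 mouse members passed, 1 higher and 4 lower (13.2%, against 8.3% of all mouse probe sets, 4.16% higher and 4.14% lower). After repeated doses, 10 passed, 4 higher and 6 lower (26.3% against 10.7%, 2.24% higher and 8.48% lower). The median size of the log2 change, whatever its sign, was 0.46 and 0.60 among mouse members (single, repeated) and 0.36 and 0.40 over all probe sets. In rats, 1 of 67 members passed after 1 dose, higher (1.49% against 1.72% of all rat probe sets, 1.21% higher and 0.503% lower). After repeated doses 2 passed, 1 higher and 1 lower (2.99% against 2.81%, 2.16% higher and 0.652% lower). The rat shares were thus close to the background. Every member that passed had TCE arrays that did not overlap its oil arrays. Among all mouse members, 2 were higher and 9 lower without overlap after 1 dose (7.96% and 9.62% of all probe sets), and 6 higher and 10 lower after repeated doses (4.6% and 12.4%). Among rat members, 7 were higher and 7 lower without overlap after 1 dose (8.79% and 3.72% of all), and 5 higher and 1 lower after repeated doses (7.52% and 4.79%).

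These counts depended on the scaling and on the arrays with a high Gapdh difference. After quantile normalization, 1 and 0 mouse members and 0 and 0 rat members passed. With the arrays above the Gapdh limit left out, 1 and 0 mouse members and 0 and 1 rat members passed. That leaves 1 TCE array in each mouse schedule, assumed to vary like the other groups. With the Gapdh difference as a covariate, 6 and 12 mouse members passed, 3 and 10 of them among those of the original fit, and 5 and 0 rat members. When only the 2 compared groups were fitted, 4 and 3 mouse members and no rat member passed (limma, with 17 and 14 rat members at an unadjusted p under 0.05 in the original fit). Those 3 mouse calls after repeated doses were Cyp2b10, Cyp4v3 and Cyp27b1. Centring each array on its median turned the mouse split after repeated doses from 4 higher and 6 lower to 6 higher and 4 lower. After 1 dose it gave 1 higher and 2 lower in mice, and in rats 1 higher and 3 lower. No member that passed changed sign under any alternative run.

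**Figure D1:**
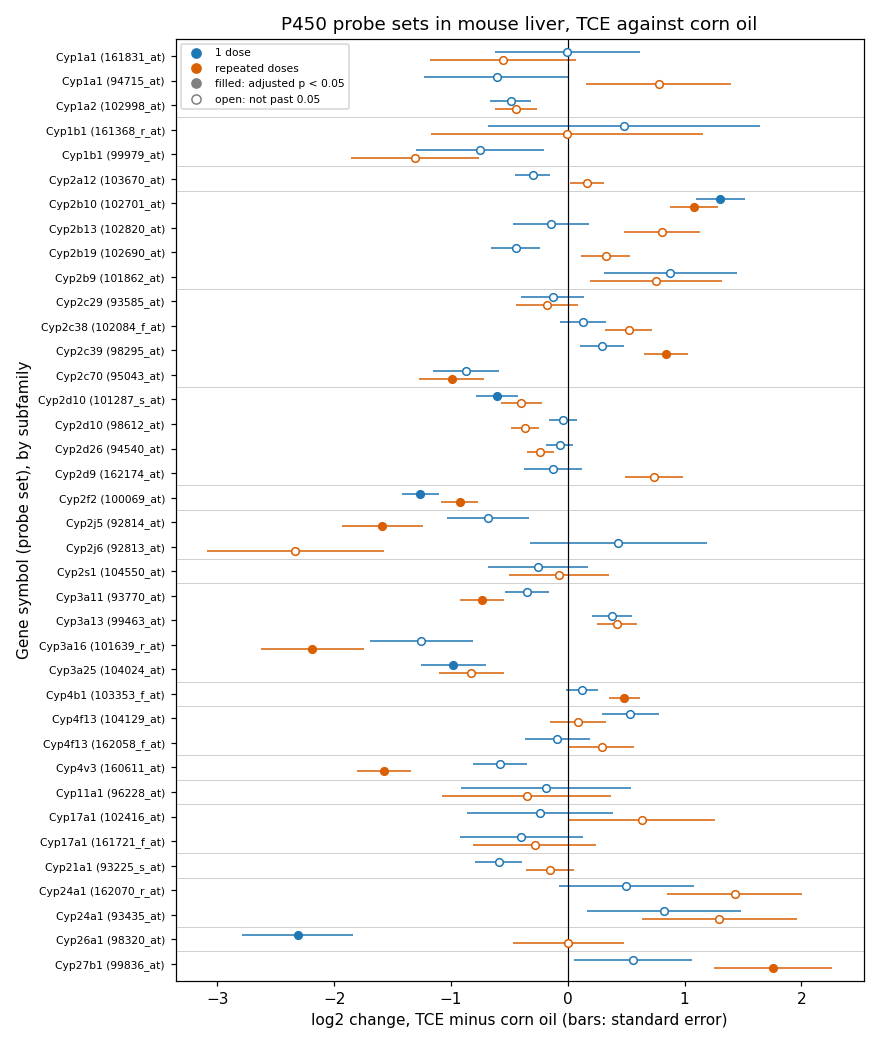
Log2 change (TCE minus corn oil, x axis) of each of the 38 mouse P450 probe sets, by subfamily, after 1 dose (blue) and repeated doses (orange). Bars are standard errors from the limma fit and filled points have an adjusted p under 0.05. The filled points lie on the higher side for Cyp2b10, Cyp2c39, Cyp4b1 and Cyp27b1, and on the lower side for Cyp2c70, Cyp2d10, Cyp2f2, Cyp2j5, Cyp3a11, Cyp3a16, Cyp3a25, Cyp4v3 and Cyp26a1.

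**Figure D2:**
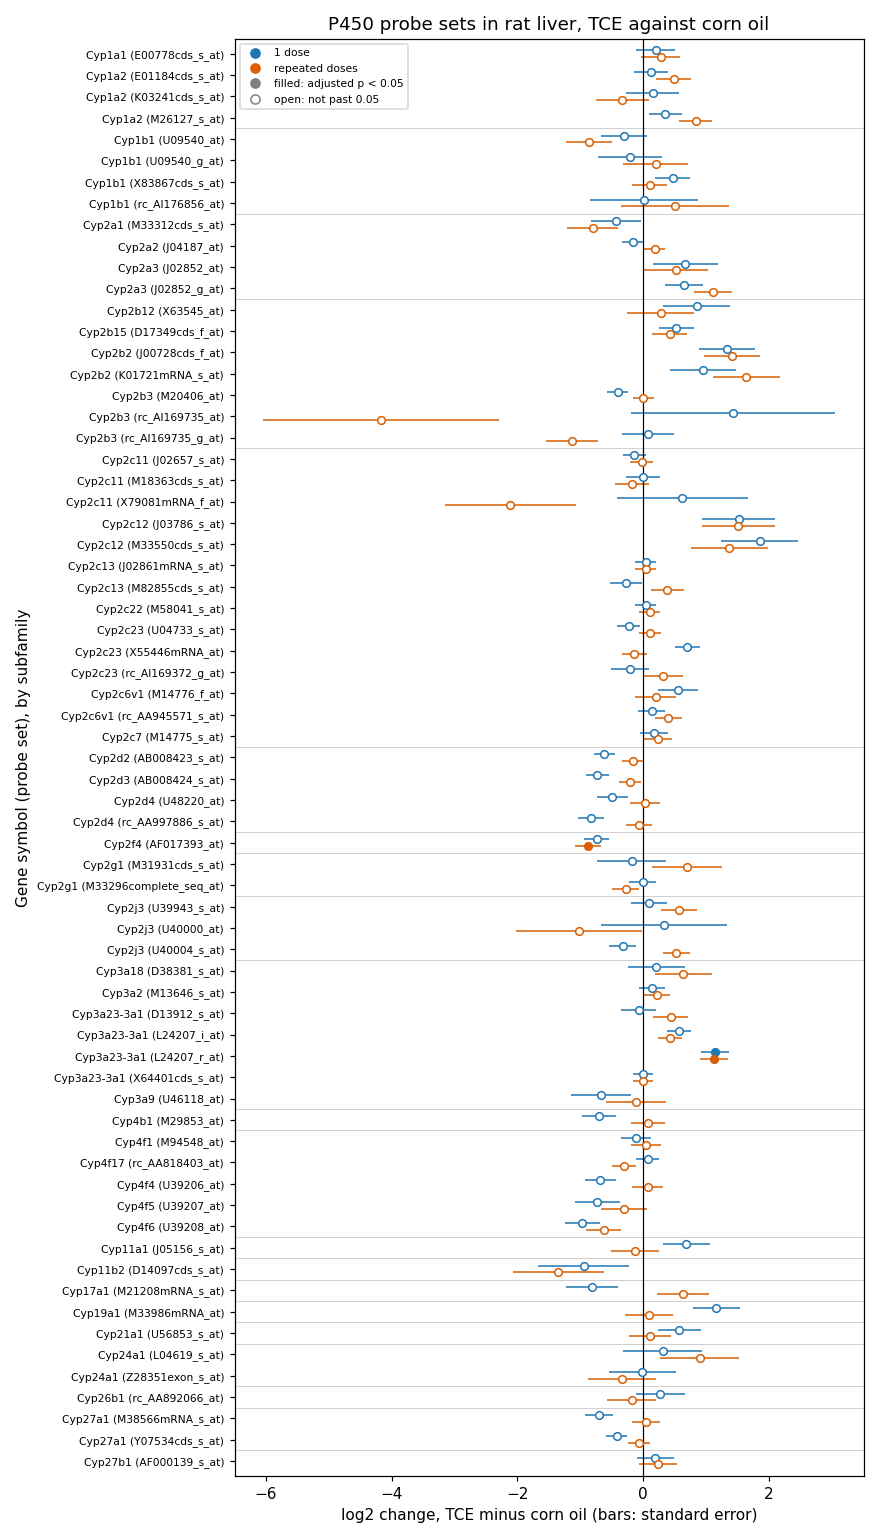
The same quantity for the 67 rat P450 probe sets, with the same axes, colours and bars. Filled points are seen for 1 probe set of Cyp3a23-3a1, higher in both schedules, and for Cyp2f4, lower after repeated doses.

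On mouse chromosome 7, Cyp2b10 and Cyp2f2 changed in opposite directions. Cyp2b10 is the classic Nr1i3-inducible P450 of mouse liver. Cyp2f2 oxidizes small aromatic compounds such as naphthalene and is best known from the airway Clara cell. The 250 bases before their annotated starts are shown, a pair picked because their transcripts moved apart. On this chromosome the member genes stand in the order Cyp2s1, Cyp2b10, Cyp2b13, Cyp2b9, Cyp2b19, Cyp2a12 and Cyp2f2. The sequences are from RefSeq (GRCm38.p6), given 5′ to 3′ on the gene's strand. Capitals mark AGGTCA, the core hexamer of many nuclear receptor sites, and TATAA, the core of a TATA box, on either strand.
Cyp2b10 chr7:25897408-25897657 (+ strand): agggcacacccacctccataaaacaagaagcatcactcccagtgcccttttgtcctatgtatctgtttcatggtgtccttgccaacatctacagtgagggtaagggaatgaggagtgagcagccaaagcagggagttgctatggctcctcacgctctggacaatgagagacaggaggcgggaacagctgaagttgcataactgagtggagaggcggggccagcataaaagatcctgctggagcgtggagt
Cyp2f2 chr7:27119705-27119954 (+ strand): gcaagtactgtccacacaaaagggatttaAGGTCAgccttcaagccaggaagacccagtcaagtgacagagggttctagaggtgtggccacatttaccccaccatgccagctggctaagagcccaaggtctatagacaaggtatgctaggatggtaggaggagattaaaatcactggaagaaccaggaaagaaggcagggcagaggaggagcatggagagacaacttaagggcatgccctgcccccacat
The Cyp2f2 window holds 1 AGGTCA, 216 to 221 bases before the start, and the Cyp2b10 window holds neither motif. Their longest shared run of bases was 8, and a link between sequence and direction was not tested. Over all 32851 windows of this length, 14% hold AGGTCA and 22.8% hold TATAA. Of the 29 mouse member genes with a window, 11 and 16 do. A match is a description of these letters and not a site.

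The Cyp2b10 ratios on the 4 oil arrays after 1 dose were 0.827, 1.08, 0.983 and 1.02. On the 4 TCE arrays they were 1.94, 2.61, 1.97 and 3.36. Every TCE array was above every oil array, and the transcript rose 2.47-fold (log2 change 1.31 ± 0.21, limma adjusted p = 0.00276). After repeated doses the oil values were 1.31, 0.963, 1.04 and 0.786 and the TCE values 1.97, 1.86, 2.71 and 2.06. The groups were again apart, and Cyp2b10 rose 2.11-fold (1.08 ± 0.21, limma adjusted p = 0.00731). It passed in all 8 fits that left out 1 array, in each schedule.

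The other mouse Cyp2b probe sets did not pass. Cyp2b9 and Cyp2b13 are expressed more in female than in male mouse liver. Cyp2b9 had changes of 0.88 and 0.76, with 1 TCE array at 6.86 and the other 3 between 0.931 and 1.13 after repeated doses. Cyp2b13 changed by -0.14 and 0.81 and Cyp2b19 by -0.45 and 0.32. Over the 4 mouse Cyp2b probe sets the median log2 change was 0.37 after 1 dose and 0.78 after repeated doses. The values above zero were 2 of 4 and 4 of 4.

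Rat Cyp2b2, a phenobarbital-inducible Nr1i3 target, had large log2 changes with wide errors. Its probe set J00728cds_f_at read 0.925, 1.85, 0.924 and 1.07 on oil and 3.03, 1.81, 3.54 and 3.52 on TCE after 1 dose. After repeated doses it read 0.668, 1.61, 0.596 and 1.33 on oil and 5.14, 3.32, 2.21 and 1.15 on TCE. In each schedule 1 TCE array lay within the oil range. The changes were 1.33 ± 0.45 and 1.42 ± 0.45 (limma adjusted p = 0.128 and 0.0959), and neither passed. The second probe set of the gene, K01721mRNA_s_at, gave 0.95 ± 0.53 and 1.64 ± 0.53 (limma adjusted p = 0.343 and 0.102). Without TCE replicate 4, or with the 2 TCE arrays above the Gapdh limit left out, J00728cds_f_at passed after repeated doses, with a change of 2.10 in the latter case. The 7 rat Cyp2b probe sets had medians of 0.85 and 0.28, with 6 and 5 above zero. The probe set rc_AI169735_at of Cyp2b3, named for this reason after its values were seen, had a missing value on 1 oil and 1 TCE array after repeated doses. It was fitted on 3 arrays a group there, with a change of -4.17 ± 1.87 that did not pass. Of the 13 rat probe sets with several symbols, 4 list 2 Cyp2b names each. They had changes of 0.93 to 1.69 after 1 dose and 1.38 to 2.21 after repeated doses, with none passing.

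Mouse Cyp2f2 fell in both schedules. After 1 dose its oil ratios were 0.928, 1.01, 1.07 and 0.989 and its TCE ratios 0.414, 0.396, 0.425 and 0.426. The 4 TCE arrays lay close together, far below the oil arrays, a 2.4-fold fall (log2 change -1.26 ± 0.16, limma adjusted p = 0.00059). After repeated doses the oil values were 0.749, 1.16, 1.06 and 0.939 and the TCE values 0.511, 0.415, 0.631 and 0.498, a 1.9-fold fall (-0.92 ± 0.16, limma adjusted p = 0.00427). Cyp2f2 passed in all 8 fits that left out 1 array in each schedule, but after repeated doses not when only the compared groups were fitted (limma adjusted p = 0.0544). It was the only mouse member that still passed after quantile normalization, and there only after 1 dose. In both schedules the Cyp2f2 call was lost with the arrays above the Gapdh limit left out, a fit with 1 TCE array.

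The rat member of the same subfamily, Cyp2f4, was also lower. Its ratios after repeated doses were 1.11, 0.887, 0.695 and 1.12 on oil and 0.542, 0.553, 0.376 and 0.594 on TCE. The groups did not overlap, and the transcript fell 1.84-fold (-0.88 ± 0.20, limma adjusted p = 0.0339). After 1 dose the oil values were 0.881, 1.12, 0.86 and 1.2 and the TCE values 0.683, 0.546, 0.598 and 0.582. These also did not overlap, but the change of -0.74 ± 0.20 did not pass (limma adjusted p = 0.0788). The call after repeated doses was lost in 5 of 8 fits that left out 1 array (oil replicate 1 or 4, or TCE replicate 1, 2 or 3), with limma adjusted p up to 0.108. It was also lost with the Gapdh covariate (limma adjusted p = 0.132) and with only the compared groups (limma adjusted p = 0.117).

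**Figure D3:**
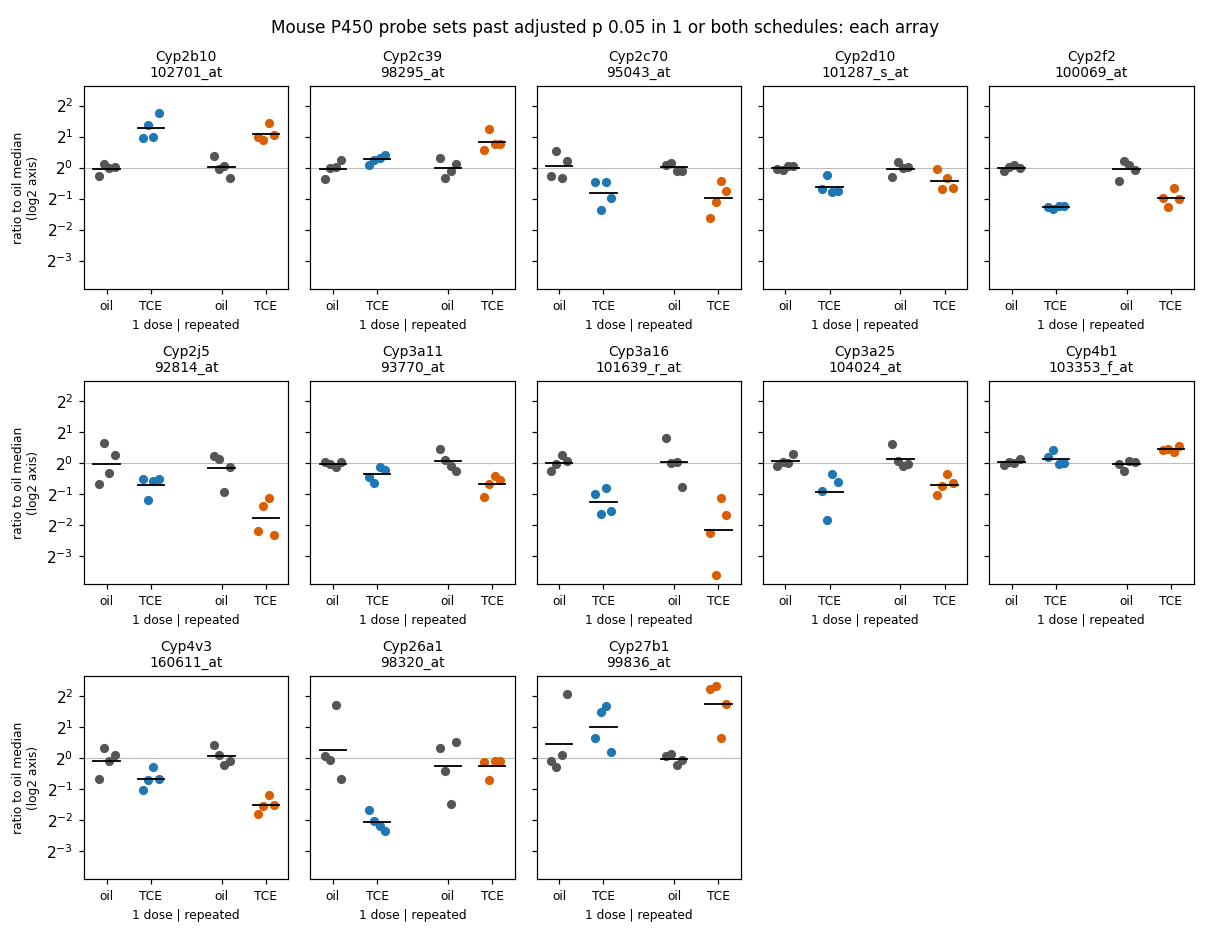
Ratio to the matched oil median (y axis, log2 scale) on each of the 16 mouse arrays, for the 13 probe sets that passed in 1 or both schedules. Grey points are oil arrays, blue points TCE after 1 dose, orange points TCE after repeated doses, and black lines geometric means. The 4 Cyp2f2 values on TCE after 1 dose lie between 0.396 and 0.426, and all 8 Cyp2b10 values on TCE lie at 1.86 or above.

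Of the mouse Cyp3a transcripts, Cyp3a11, Cyp3a16 and Cyp3a25 were below oil without overlap in both schedules, and each passed in 1 schedule only. Cyp3a enzymes oxidize many drugs and steroids, and Cyp3a11 is the usual read-out of Nr1i2 in mouse liver. Of 4 mouse Cyp3a probe sets, 1 passed after 1 dose and 2 after repeated doses, all lower. Of all mouse probe sets, 4.14% and 8.48% passed lower, and 9.62% and 12.4% were lower without overlap. The median log2 changes were -0.67 and -0.78. The promoter windows of Cyp3a11 and Cyp3a16, which fell together after repeated doses, are shown with capitals as above.
Cyp3a11 chr5:145879855-145880104 (- strand): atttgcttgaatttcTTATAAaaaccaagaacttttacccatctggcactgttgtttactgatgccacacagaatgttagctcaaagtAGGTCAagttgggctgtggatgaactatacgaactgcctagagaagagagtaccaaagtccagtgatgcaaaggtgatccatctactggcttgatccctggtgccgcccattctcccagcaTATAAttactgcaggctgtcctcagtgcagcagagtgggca
Cyp3a16 chr5:145469724-145469973 (- strand): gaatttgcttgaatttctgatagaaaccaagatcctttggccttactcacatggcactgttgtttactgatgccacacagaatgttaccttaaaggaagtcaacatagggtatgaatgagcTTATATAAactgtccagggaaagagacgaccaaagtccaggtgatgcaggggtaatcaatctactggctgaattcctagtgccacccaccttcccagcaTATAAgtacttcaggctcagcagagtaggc
Distances are from the start that RefSeq's promoter table uses. For Cyp3a16 this start lies inside the annotated gene, so the window overlaps the outer end of the gene by a few bases. Both hold TATAA close to that start (37 to 41 bases before it for Cyp3a11, 26 to 30 for Cyp3a16). Other TATAA matches, on both strands and overlapping each other, lie further upstream. Only the Cyp3a11 window holds AGGTCA, 157 to 162 bases before the start. The windows share 4 runs of 12 bases or more, the longest of 36, which cover 77 bases (30.8%) of the window. This pair was also picked for its changes, and a link between shared sequence and the shared fall was not tested.

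Cyp3a16, known as a P450 of fetal and neonatal liver, read 1.75, 0.989, 1.01 and 0.586 on oil and 0.207, 0.0817, 0.453 and 0.31 on TCE after repeated doses. All TCE arrays were below all oil arrays, a 4.56-fold fall (-2.19 ± 0.44, limma adjusted p = 0.00867, and 0.066 with only the compared groups). After 1 dose the TCE values of 0.315 to 0.564 also lay below the oil values of 0.834 to 1.18, but the change of -1.26 ± 0.44 did not pass (limma adjusted p = 0.0946). Its probe set carries the suffix r, which Affymetrix uses for probe sets built with relaxed selection rules, so near-identical Cyp3a transcripts may share its signal.

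Cyp3a11 after repeated doses read 1.37, 1.07, 0.927 and 0.828 on oil and 0.463, 0.618, 0.749 and 0.684 on TCE. The groups did not overlap, with a 1.67-fold fall (-0.74 ± 0.19, limma adjusted p = 0.0255). This call was lost in 4 of 8 fits that left out 1 array (oil or TCE replicate 1 or 2), with limma adjusted p up to 0.0635. After 1 dose the TCE values of 0.636 to 0.901 also lay below the oil values of 0.913 to 1.02. The change of -0.35 ± 0.19 did not pass.

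Cyp3a25 after 1 dose read 0.931, 1.01, 0.994 and 1.21 on oil and 0.531, 0.276, 0.784 and 0.649 on TCE. The transcript fell 1.97-fold (-0.98 ± 0.28, limma adjusted p = 0.0448). It passed in only 1 of 8 fits with 1 array left out (that without TCE replicate 3), with limma adjusted p up to 0.106 in the others. After repeated doses the groups were also apart (0.484 to 0.783 against 0.922 to 1.52), with a change of -0.82 that did not pass. Cyp3a13 had changes of 0.38 and 0.42 and did not pass either. A mouse probe set that lists 2 Cyp3a symbols, and so names neither, changed by -0.76 ± 0.23 (limma adjusted p = 0.0588) and -1.15 ± 0.23 (limma adjusted p = 0.00908).

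In the rat, the Cyp3a probe set that passed was higher. Rat Cyp3a23-3a1 is a steroid-inducible Nr1i2 target and was read by 4 probe sets. The first of them, L24207_r_at, read 0.941, 0.826, 1.22 and 1.06 on oil and 2.61, 1.65, 2.58 and 2.13 on TCE after 1 dose. After repeated doses it read 0.99, 0.796, 1.01 and 1.11 on oil and 1.72, 1.78, 3.13 and 2.08 on TCE. All TCE arrays were above all oil arrays in each schedule, with rises of 2.21-fold (1.14 ± 0.22, limma adjusted p = 0.0247) and 2.18-fold (1.12 ± 0.22, limma adjusted p = 0.0162). The call after 1 dose was lost in 4 of 8 fits with 1 array left out (oil replicate 2 or 4, TCE replicate 1 or 4), with limma adjusted p up to 0.0902, and that after repeated doses in none. The latter was lost with the Gapdh covariate (0.93, limma adjusted p = 0.105). Both were lost with only the compared groups (limma adjusted p = 0.0613 and 0.07).

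The other probe sets of the gene gave smaller changes, not all in the same direction. L24207_i_at was also higher, with changes of 0.57 and 0.43. After repeated doses its TCE values of 1.03 to 1.75 lay above its oil values of 0.901 to 1.02. D13912_s_at had changes of -0.07 and 0.44. X64401cds_s_at stood at -0.01 ± 0.16 after repeated doses and nearer still to zero after 1 dose, with TCE values from 0.821 to 1.16 over both schedules. None of the 3 passed. Cyp3a2 and Cyp3a18, the other rat members of the Nr1i2 target list, had changes of 0.14 and 0.22, and of 0.21 and 0.64, and did not pass. The median over the 7 rat Cyp3a probe sets was 0.14 and 0.43.

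**Figure D4:**
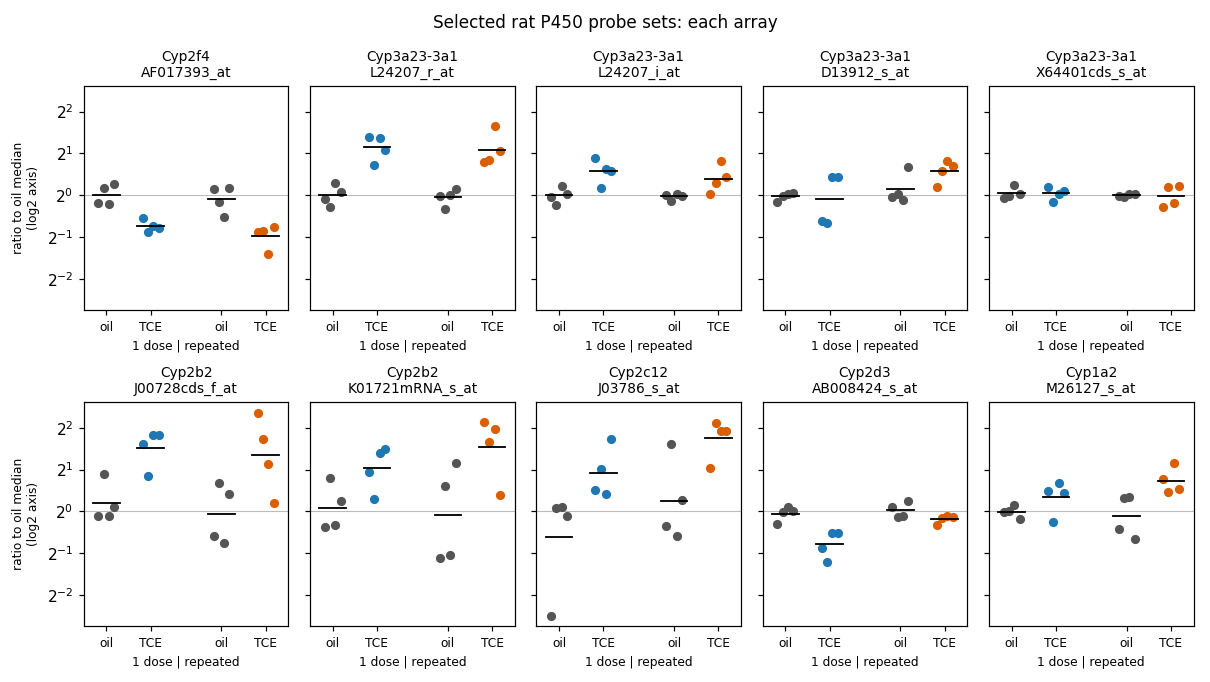
Ratio to the matched oil median (y axis, log2 scale) on each of the 16 rat arrays for 10 probe sets, with points and lines as in the mouse plot. The TCE values of L24207_r_at, all at 1.65 or above, stand clear of oil, whereas those of X64401cds_s_at, from 0.821 to 1.16, spread around the oil values of 0.956 to 1.19.

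Within Cyp2c, whose members oxidize arachidonic acid, drugs and steroids, mouse genes went both ways. Cyp2c39 after repeated doses read 1.24, 0.794, 0.927 and 1.07 on oil and 1.5, 2.35, 1.7 and 1.68 on TCE. It rose 1.79-fold (0.84 ± 0.19, limma adjusted p = 0.0137) and passed in all 8 fits with 1 array left out, but not with only the compared groups (limma adjusted p = 0.0686). Cyp2c70, which in mice converts chenodeoxycholic acid to muricholic acids, read 1.06, 1.12, 0.936 and 0.931 on oil and 0.323, 0.462, 0.738 and 0.598 on TCE. It fell 1.99-fold (-0.99 ± 0.28, limma adjusted p = 0.0364). This call held in 2 of 8 fits with 1 array left out (those without TCE replicate 3 or 4), with limma adjusted p up to 0.0893 in the other 6. After 1 dose Cyp2c70 changed by -0.87 ± 0.28 without passing (limma adjusted p = 0.0705) and Cyp2c39 by 0.29 ± 0.19. Cyp2c29, listed as an Nr1i3 target, stood at -0.13 and -0.18, with overlapping groups.

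None of the 14 rat Cyp2c probe sets passed (median 0.09 and 0.15), where 1.72% and 2.81% of all rat probe sets did. The male-specific Cyp2c11, a major P450 of male rat liver, stood at -0.14 ± 0.18 and -0.02 ± 0.18 on its probe set J02657_s_at. Its TCE values ran from 0.658 to 1.09 and its oil values from 0.805 to 1.15. The other Cyp2c11 probe sets did not pass either. M18363cds_s_at stood near zero after 1 dose and at -0.18 ± 0.27 after repeated doses, and X79081mRNA_f_at at 0.62 ± 1.04 and -2.11 ± 1.04. The female-specific Cyp2c12 had large changes on both of its probe sets, 1.52 and 1.51 on J03786_s_at and 1.85 and 1.37 on M33550cds_s_at. On J03786_s_at after 1 dose the oil values were 0.177, 1.07, 1.07 and 0.934 and the TCE values 1.42, 2.03, 1.34 and 3.3. After repeated doses they were 0.785, 3.07, 0.664 and 1.22 against 2.06, 4.33, 3.8 and 3.79. The single low oil array after 1 dose lowered the oil mean to -0.60 log2 and so enlarged that change. The same array read 0.172 on M33550cds_s_at, where the oil mean was -0.56. This array and the high oil array of 3.07 also widened the errors on J03786_s_at (0.58). The limma adjusted p was 0.175 and 0.174. Of 7 male-predominant and 4 female-predominant rat probe sets, none passed in either schedule (1.72% and 2.81% of all rat probe sets). In mice, Cyp2d9, a male-predominant steroid hydroxylase, had changes of -0.13 and 0.74. After repeated doses its TCE values of 1.45 to 1.84 were all above its oil values of 0.741 to 1.34, without passing (limma adjusted p = 0.0687).

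Cyp2d enzymes oxidize many basic drugs. In mice, 1 of 4 Cyp2d probe sets passed, lower and after 1 dose, where 4.14% of all mouse probe sets passed lower. The Cyp2d10 probe set with suffix s read 0.973, 0.939, 1.04 and 1.03 on oil and 0.625, 0.849, 0.576 and 0.59 on TCE after 1 dose. It fell 1.52-fold (-0.61 ± 0.18, limma adjusted p = 0.0494). The second probe set of Cyp2d10 stood at -0.04 ± 0.12 in the same comparison, with overlapping groups. The call held in 1 of 8 fits with 1 array left out (that without TCE replicate 2), with limma adjusted p up to 0.125, and the log2 change was -0.20 with the Gapdh covariate.

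After 1 dose all 4 rat Cyp2d probe sets were below zero, from -0.83 to -0.49, and none passed. The lowest value was on rc_AA997886_s_at of Cyp2d4. Cyp2d3 read 0.812, 0.993, 1.07 and 1.01 on oil and 0.55, 0.436, 0.695 and 0.696 on TCE. These groups did not overlap (-0.73 ± 0.18, limma adjusted p = 0.0567). After repeated doses the 4 probe sets lay between -0.21 and 0.02. With each array centred on its median, Cyp2d2, Cyp2d3 and 1 of the 2 Cyp2d4 probe sets passed after 1 dose, with changes of -0.75, -0.85 and -0.96. Cyp2d2 and Cyp2d4 are named here after their values were seen.

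Cyp2j enzymes make epoxides of arachidonic acid. Mouse Cyp2j5, abundant in kidney and liver, read 1.15, 1.1, 0.524 and 0.904 on oil and 0.215, 0.381, 0.45 and 0.199 on TCE after repeated doses. All TCE arrays were below all oil arrays, a 3.01-fold fall (-1.59 ± 0.35, limma adjusted p = 0.0128). The call held in all 8 fits with 1 array left out, but not with only the compared groups (limma adjusted p = 0.0561). After 1 dose it changed by -0.68 ± 0.35 and did not pass. Its neighbour Cyp2j6, named after its values were seen, had 0.43 and -2.33 ± 0.76. Its oil array at 0.189 lay within its repeated TCE range of 0.0845 to 0.36 (limma adjusted p = 0.0623). Rat Cyp2j3 had 3 probe sets, from -0.32 to 0.33 after 1 dose and from -1.02 to 0.57 after repeated doses, none passing.

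For Cyp2a, which includes steroid and coumarin hydroxylases, the only mouse probe set with a single symbol, Cyp2a12, stood at -0.30 and 0.16 and did not pass. A mouse probe set that lists 2 Cyp2a symbols, and so names neither, rose by 2.15 ± 0.20 and 1.47 ± 0.20 on the log2 scale (limma adjusted p = 6.67e-05 and 0.00106). In rats, the probe set J02852_g_at of Cyp2a3 read 0.722, 1.36, 1.28 and 0.668 on oil and 1.95, 2.25, 2.29 and 1.81 on TCE after repeated doses. The groups did not overlap, but the change of 1.11 ± 0.30 did not pass (limma adjusted p = 0.0635). The second probe set of Cyp2a3 gave 0.52 ± 0.52. Mouse Cyp2s1 (-0.25 and -0.08) and rat Cyp2g1 (-0.01 and -0.28 on M33296complete_seq_at) did not pass.

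No probe set of the Ahr targets Cyp1a1, Cyp1a2 and Cyp1b1 passed in any of the 4 comparisons. Of all probe sets, 8.3% and 10.7% passed in mice and 1.72% and 2.81% in rats. Cyp1a2, a constitutive liver P450, read 0.989, 1.01, 0.825 and 1.05 on oil and 0.708, 0.569, 0.654 and 0.844 on TCE in mice after 1 dose. After repeated doses it read 1.48, 1.05, 0.942 and 0.948 against 0.751, 0.692, 0.832 and 0.944. The highest TCE array met the oil range each time, and the changes of -0.49 ± 0.18 and -0.44 ± 0.18 did not pass (limma adjusted p = 0.106 and 0.127). In rats, M26127_s_at of Cyp1a2 had 0.35 ± 0.27 and 0.83 ± 0.27 (limma adjusted p = 0.499 and 0.10). Its repeated-dose TCE values of 1.38 to 2.23 were all above its oil values of 0.63 to 1.27. Other rat Cyp1a2 probe sets gave 0.12 and 0.48 (E01184cds_s_at) and 0.15 and -0.33 (K03241cds_s_at). The median of the Ahr target list was -0.49 and -0.44 over 5 mouse probe sets, and 0.13 and 0.24 over 8 rat probe sets.

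Among Cyp4 genes outside Cyp4a, mouse Cyp4v3 and Cyp4b1 changed after repeated doses. Cyp4v3, a fatty acid hydroxylase, read 1.34, 1.06, 0.86 and 0.937 on oil and 0.284, 0.338, 0.432 and 0.352 on TCE. The TCE arrays lay well below oil, a 2.98-fold fall (-1.57 ± 0.23, limma adjusted p = 0.00215) that passed in all 8 fits with 1 array left out. After 1 dose the change was -0.58 ± 0.23 with overlapping groups. Cyp4b1 read 0.982, 0.833, 1.03 and 1.02 on oil and 1.32, 1.37, 1.26 and 1.44 on TCE, a 1.4-fold rise (0.49 ± 0.14, limma adjusted p = 0.0353). The Cyp4b1 call held in 1 of 8 fits with 1 array left out (that without TCE replicate 3), with limma adjusted p up to 0.103. Rat Cyp4b1 had -0.70 and 0.08. Mouse Cyp4f13, on the probe set with the smaller p, had 0.54 ± 0.24 and 0.09 ± 0.24 and did not pass. Of 5 rat Cyp4f probe sets, 4 were below zero after 1 dose (median -0.68) and 3 after repeated doses (median -0.30), with none passing. Cyp4f6, from a subfamily known for oxidizing leukotrienes, had the smallest p of them, with -0.97 ± 0.28 and -0.63 ± 0.28 (limma adjusted p = 0.0892 and 0.238).

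Cyp26a1 and Cyp27b1, of the retinoid and vitamin D families, changed in mice. Cyp26a1, which clears retinoic acid, read 1.05, 0.949, 3.26 and 0.619 on oil and 0.313, 0.246, 0.218 and 0.197 on TCE after 1 dose. All TCE arrays were below all oil arrays, a 4.97-fold fall (-2.31 ± 0.48, limma adjusted p = 0.0100), and the call held in all 8 fits with 1 array left out, that without the oil array at 3.26 included. With the Gapdh covariate the limma adjusted p was 0.0772. After repeated doses Cyp26a1 read 1.25, 0.751, 0.355 and 1.44 on oil and 0.921, 0.608, 0.933 and 0.926 on TCE, a change of 0.00 ± 0.48.

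Cyp27b1, the 1-alpha-hydroxylase that makes active vitamin D, read 1.05, 1.09, 0.846 and 0.953 on oil and 4.68, 5.03, 1.55 and 3.31 on TCE after repeated doses. It rose 3.38-fold (1.76 ± 0.50, limma adjusted p = 0.0397), though the call held in 1 of 8 fits with 1 array left out (that without TCE replicate 3), with limma adjusted p up to 0.109. After 1 dose the change was 0.56 ± 0.50, with 1 oil array at 4.2. Cyp24a1, which inactivates vitamin D, had 0.50 and 1.43 on its probe set with suffix r and 0.82 and 1.30 on the other. None of these passed. On the former after repeated doses, the TCE values of 1.28 to 4.2 were above the oil values of 0.894 to 1.11.

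In rats no vitamin, retinoid or sterol P450 passed (1.72% and 2.81% of all rat probe sets did). Cyp27a1, a mitochondrial sterol 27-hydroxylase of bile acid synthesis, had -0.70 ± 0.22 and 0.05 ± 0.22 on M38566mRNA_s_at. After 1 dose its TCE values of 0.504 to 0.875 lay below its oil values of 0.945 to 1.32 (limma adjusted p = 0.105). Cyp26b1 had 0.27 and -0.18. Steroid-synthesis P450s, known mainly from adrenal and gonad, did not pass in either species. Cyp17a1 among them is also listed as a female-predominant P450 of mouse liver. Their changes ran from -0.59 to -0.19 and from -0.35 to 0.64 over 4 mouse probe sets, and from -0.94 to 1.17 and from -1.35 to 0.63 over 5 rat probe sets. Cyp21a1 in mice (-0.59 ± 0.20 after 1 dose, limma adjusted p = 0.0888) and Cyp19a1 in rats (1.17 ± 0.38 after 1 dose, limma adjusted p = 0.119) had groups that did not overlap. So did rat Cyp11a1 (0.69 ± 0.37) and Cyp17a1 (-0.81 ± 0.42) after 1 dose (limma adjusted p = 0.333 and 0.302). After 1 dose, 9.62% of all mouse probe sets were lower without overlap. In rats 8.79% were higher and 3.72% lower.

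Different probe sets of a gene often had changes of different sign, though some of these lay near zero (rat Cyp27a1 at -0.06 and 0.05 after repeated doses). No gene had probe sets that passed in opposite directions. Of 6 mouse genes with more than 1 probe set, 2 had changes of both signs in each schedule, not the same genes in both. Of 16 such rat genes, 8 did after 1 dose and 10 after repeated doses. The suffixes s, f, r, i and g, which mark probe sets that can share sequence with related transcripts or were built under relaxed rules, stood on 9 of 38 mouse and 46 of 67 rat members. Since P450 subfamilies hold near-identical genes, the assignment of such a signal to 1 gene is uncertain.

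No member passed the test of a difference between the schedules. For the difference of the TCE effects, repeated minus single, 0 of 38 mouse members passed (0.877% of all mouse probe sets), with 6 at an unadjusted limma p under 0.05. Among 67 rat members 0 passed (0% of all rat probe sets), with 7 at an unadjusted limma p under 0.05. Mouse Cyp26a1 had the smallest p, with a difference of 2.32 ± 0.67 (limma adjusted p = 0.0913), followed by Cyp4v3 with -1.0 ± 0.33 (limma adjusted p = 0.122). Cyp4v3 passed when the noisiest 40% of probe sets were left out (limma adjusted p = 0.0485). In rats the smallest p belonged to X55446mRNA_at of Cyp2c23, with -0.84 ± 0.28 (limma adjusted p = 0.427). Next was a probe set of Cyp2j3, with 0.85 ± 0.30 (limma adjusted p = 0.470). Other probe sets of these genes had differences of the opposite sign. For Cyp2c23 they were 0.53 and 0.34, and the 3 Cyp2j3 probe sets ran from -1.35 to 0.85. So a call in 1 schedule alone, as for Cyp26a1 or Cyp4v3, was not shown to differ from the other schedule. The signs of the 2 changes were the same in 28 mouse members (18 lower, 10 higher) and 43 rat members (16 lower, 27 higher).

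Only 9 member symbols stood on both arrays, out of 3056 shared symbols, because the names in Cyp2b, Cyp2c, Cyp2d, Cyp2f and Cyp3a are species-specific. For those 9, the mouse minus rat difference of the TCE effect was tested with 1 probe set per symbol, the one with the smallest spread within groups. After 1 dose 0 of 9 passed (4.22% of all shared symbols, 1.51% higher in mice and 2.72% lower). By unadjusted limma p, 3 of the 9 were under 0.05: Cyp1a2, Cyp21a1 and Cyp4b1. After repeated doses 1 of 9 passed (10.5% of all shared symbols, 8.51% lower in mice). That symbol was Cyp1a2, where the mouse change of -0.44 and the rat change of 0.83 differed by -1.28 ± 0.32 (limma adjusted p = 0.00965). Neither change passed in its own species. The call held in all 16 fits with 1 array left out. It was lost after quantile normalization (-0.84, limma adjusted p = 0.345), with the arrays above the Gapdh limit left out (-1.11, limma adjusted p = 0.205) and with the mean of all probe sets of each symbol (-0.77, limma adjusted p = 0.151). Cyp27b1 (1.52 ± 0.60), Cyp24a1 (1.77 ± 0.81) and Cyp1b1 (-1.41 ± 0.62) had larger differences after repeated doses that did not pass (limma adjusted p = 0.10, 0.158 and 0.143), each with an unadjusted p under 0.05.

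**Figure D5:**
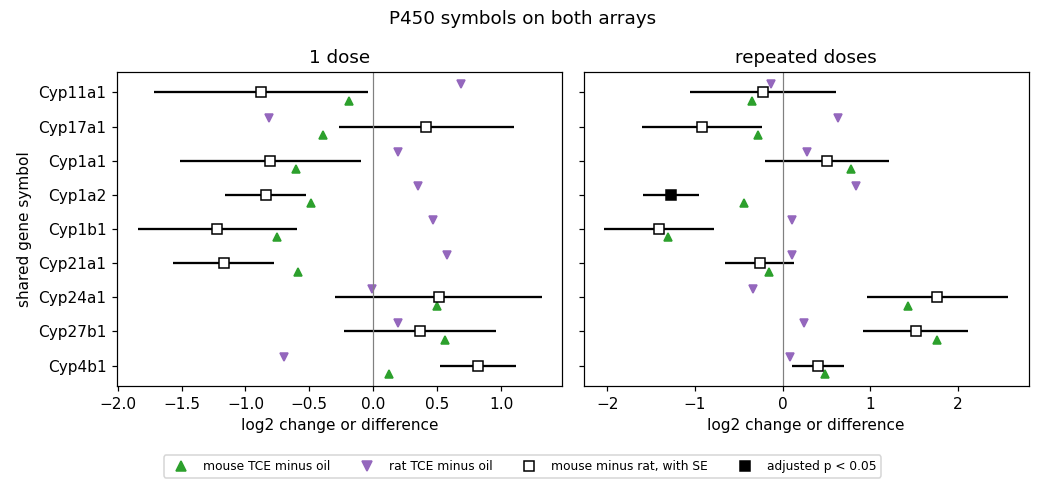
The 9 P450 symbols present on both arrays, after 1 dose (left) and repeated doses (right). Upward triangles are the mouse log2 change, downward triangles the rat log2 change, and squares their difference, mouse minus rat, with its standard error. The 1 filled square, Cyp1a2 after repeated doses at -1.28, has an adjusted p under 0.05.

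P450s need electrons from Por, cytochrome b5 and adrenodoxin (Fdx1) and haem from the pathway that Alas1 opens. Of 20 mouse probe sets of this electron and haem list, 0 were higher and 3 lower in each schedule (15%, against 8.3% and 10.7% of all mouse probe sets, of which 4.14% and 8.48% were lower). Cyb5r3, the cytochrome b5 reductase, changed by -0.76 and -0.63 and Urod, a decarboxylase of haem synthesis, by -0.83 and -0.81. The third was Hmox2, a haem oxygenase, after 1 dose (-0.54), and Cyb5b, the outer mitochondrial cytochrome b5, after repeated doses (-0.95). Of 27 rat probe sets, 1 passed after 1 dose, Cyb5r3 (-0.84; 3.7% against 1.72% of all rat probe sets). After repeated doses 2 passed, Fdx1 (0.87) and Pgrmc1, a haem-binding partner of P450s (1.08), or 7.41% against 2.81%. Alas1 did not pass in either species, with 0.55 and -0.11 in mice and 1.09 and 1.11 on its 2 rat probe sets after repeated doses. Por, read by 3 rat probe sets, ran from -0.72 to -0.31 after 1 dose and did not pass.

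Among the receptors that control P450 genes, 1 of 16 mouse probe sets was higher and 4 lower after 1 dose (31.2%, against 8.3% of all mouse probe sets). Ppara, the fatty acid and peroxisome proliferator receptor, rose by 0.56. Nr1i2 fell by 1.19, Nr0b2, a corepressor, by 1.08 and Arnt, the dimer partner of Ahr, by 1.04, and 1 Rxra probe set fell by 0.54 on the log2 scale. After repeated doses 0 were higher and 1 lower, an Rxra probe set (-0.66; 6.25% against 10.7%), and Nr1i2 stood at -0.87 (limma adjusted p = 0.0529). Nr1i3 did not pass on any of 3 mouse probe sets, which ran from -0.71 to 0.01 after 1 dose. None of the 22 rat probe sets of this list passed in either schedule by limma (1.72% and 2.81% of all rat probe sets did), with 8 and 6 at an unadjusted p under 0.05.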

How the data were processed

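Liver RNA of the 32 arrays was read on Affymetrix GeneChips. The authors deposited 1 table per species, and the submitters' processing notes name MAS5, Affymetrix's signal software, with no version. The deposited values are ratios: in each species and schedule every probe set with no missing oil value has an oil median within 0.002 of 1, so the authors had divided each signal by that median. This removes levels and keeps differences within a schedule. An aligner of probes to genes and a signal threshold are not given in the sources used here.

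Control probe sets were left out (66 mouse, 59 rat). GEO's platform annotation gave 1 symbol for 10833 mouse and 7006 rat probe sets, several for 396 and 308, and none for 1193 and 1426. Values were taken as log2 and fitted with limma 3.58.1 (R 4.3.3, lmFit and eBayes) over all probe sets. Each species had 1 mean per group over 16 arrays, and the species difference was fitted on shared symbols. Missing values (2 mouse, 11 rat) were left missing. The test assumed log2 expression values when it was chosen, and the ratios found use the same test on their log2.

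Adjusted p-values are Benjamini-Hochberg over all probe sets or all shared symbols. Named genes are the members past the threshold with their other probe sets, the smallest p of each subfamily with none, and members of fixed lists. The members and lists were chosen with earlier results of these data known. Labels share replicate numbers, but 0 of the 16 same-numbered pairs had deviations correlated above 0.1 (-0.173 to 0.078), so arrays were not paired. The fits were tested on simulated data, with changes in a small part of the probe sets and independent noise at each probe set's own spread. Of true changes of 1 log2 unit, 35% and 38% passed in mice (single, repeated) and 23.2% and 33.7% in rats. Of changes of 2 log2 units, 70% and 77% passed in mice and 68.6% and 74.3% in rats. Fewer probe sets changed there than the 1031 and 1331 that passed in mice, and no array-wide or RNA integrity difference was simulated. These shares therefore need not hold for the tests above. A member that did not pass may still have changed. Precision is limited by 4 arrays a group, with a median spread within groups of 0.401 (mouse) and 0.395 (rat) log2 units among members. Alternatives were quantile normalization, median centring, log2(ratio + 1), only the compared groups, array weights, a replicate block, the Gapdh covariate, the Gapdh limit, a filter on noisy probe sets and leaving out each array. Figures were drawn with matplotlib 3.10.9. A probe set's sequence and rat promoters were not used here.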

Additional observations from a re-analysis of the deposited data

Results flagged for a closer look

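The TCE effect on Cyp1a2 after repeated doses differed between the species by -1.28 log2 units, mouse minus rat, by the limma test of that difference (adjusted p = 0.00965). The mouse change was -0.44 and the rat change 0.83, and neither passed in its own species. It was 1 of 9 member symbols to pass this test, and of all shared symbols 10.5% passed. The call was lost after quantile normalization, with the arrays above the Gapdh limit left out and with the mean of all probe sets of each symbol. Other rat Cyp1a2 probe sets changed by 0.48 (E01184cds_s_at) and -0.33 (K03241cds_s_at) after repeated doses.

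A single array stood far from the other 3 of its group in 19 of 418 groups of member values (4.55%), by Dixon's ratio on the log2 scale. Chance flags about 1 in 20 groups. In mice after 1 dose, the oil arrays were Cyp11a1 at 6.39, Cyp1a1 at 6.04, Cyp27b1 at 4.2, Cyp2a12 at 1.22 and Cyp4f13 at 1.21, and the TCE arrays Cyp17a1 at 0.255 and Cyp2j5 at 0.438. In mice after repeated doses, they were the other Cyp1a1 probe set at 0.117 on oil, and Cyp26a1 at 0.608 and Cyp2b9 at 6.86 on TCE. In rats after 1 dose, the oil arrays were Cyp17a1 at 3.23, Cyp2a3 at 0.321, Cyp2c12 at 0.177 and Cyp3a2 at 0.692, and the TCE array was Cyp2a3 at 0.591. In rats after repeated doses, the oil arrays were Cyp11b2 at 2.12, Cyp27a1 at 1.21 and Cyp27b1 at 0.635, and the TCE array was Cyp4f17 at 1.02. None of these groups belongs to a comparison in which that probe set passed.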

How the results depend on the processing

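Counts of members past the threshold are given in the order mouse single, mouse repeated, rat single and rat repeated, against 5, 10, 1 and 2 as reported. Quantile normalization gave 1, 0, 0 and 0, and leaving out arrays above the Gapdh limit gave 1, 0, 0 and 1 (the rat call was then Cyp2b2). Fitting only the compared groups gave 4, 3, 0 and 0. Median centring gave 3, 10, 4 and 2, array weights 5, 10, 7 and 3, the Gapdh covariate 6, 12, 5 and 0, log2(ratio + 1) 5, 12, 1 and 3, and leaving out the noisiest 40% of probe sets 6, 11, 8 and 4. With the replicate number as a block the counts were 3, 7, 1 and 2. Whether the numbers pair the arrays is not known. Of 16 TCE arrays, 5 correlated best with their own number, 3 of them in mice after 1 dose, which cannot decide it. Leaving out 1 array gave 3 to 4, 6 to 11, 0 to 4 and 1 to 3. The lowest mouse repeated count, 6, came without oil or TCE replicate 1 or 2. The highest rat single count, 4, came without TCE replicate 3.

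For the schedule difference, the count of 0 became 1 in mice with the noisiest 40% left out, and stayed 0 in all other fits, 0 to 0 with 1 array left out. The species difference after 1 dose went from 0 to 1 with centring (Cyp4b1), array weights and the noise filter (both Cyp21a1), and was 0 to 1 with 1 array left out. After repeated doses it went from 1 to 0 with quantile normalization, the Gapdh limit and the mean of probe sets, to 2 with only the compared groups (Cyp27b1 added), and was 1 to 2 with 1 array left out. No result changed sign. The cause of these shifts was not tested. Ratios hold no signal over background, so dim probe sets could not be filtered.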
